A study of Mus musculus with 6 samples.

Results

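The genes described here encode the enzymes that build cholesterol and fatty acids, and the proteins that regulate them. The list holds 33 genes, chosen by name with earlier results of these data known. Of them, 32 have a probe named for the gene on the array. All 32 were well above background on all 6 arrays and entered the fit, among 22260 genes tested. The exception is Acat2, the cytosolic acetoacetyl-CoA thiolase, for which no probe carries the name and no value is given. The 32 genes were read as 6 of the mevalonate pathway, 11 from squalene to cholesterol, 6 regulators and sterol carriers, and 9 of fatty acid synthesis. No receptor for lipoprotein uptake is among them, so uptake was read from a separate list.

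Ureters came from 2-month-old mice of the C57BL/6N background, 4 days after unilateral ureteral obstruction (UUO), in which the ureter of 1 side is blocked. The labels give 3 mice as Col17a1-WT and 3 as Col17a1-KO, and all 6 were obstructed, so no unobstructed ureter serves as a baseline. KO replicate 3 is labelled female and the other 5 mice male. The sources used here do not say how the Col17a1 allele was made, and nothing in them ties a WT mouse to a KO mouse by litter. Col17a1 encodes collagen XVII, a hemidesmosome protein of basal epithelial cells.

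Cholesterol is built from acetyl-CoA by way of mevalonate and squalene, and fatty acids are built from acetyl-CoA by way of malonyl-CoA. When sterols in the endoplasmic reticulum are low, SCAP escorts the SREBP transcription factors to the Golgi, where proteases release their active part; INSIG proteins hold SCAP back when sterols are plentiful. SREBP-2 mainly drives sterol genes and SREBP-1 mainly fatty acid genes. Umbrella cells of the urothelium carry a membrane rich in cholesterol and uroplakins, while fat cells around the ureter are a major site of fatty acid synthesis.

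Values are log2 processed signals minus the 75th percentile of the same array, so a difference of 1 is 2-fold, and differences are KO-labelled minus WT with the standard error from limma. Col17a1 itself had values of -2.33, -0.80 and -0.39 in WT replicates 1, 2 and 3 and of 0.50, 0.53 and 0.40 in the KO-labelled replicates. The transcript measured by this probe was therefore not lower in the ureters labelled KO (difference 1.65 ± 0.48; limma, adjusted p = 0.457). The altered part of the gene is not stated, so the probe may lie outside it, and each direction below rests on the labels alone. Array-to-array correlations over all genes lay between 0.977 and 0.993. Markers of superficial and basal urothelium, smooth muscle, fibroblasts, macrophages, mesothelium and adipocytes were well above background on every array. Of 9 kidney tubule and podocyte markers, 8 were well above background in WT replicate 2 and 4 to 6 in the other arrays, and the mean level of the 4 tested was 2.10 in WT replicate 2, relative to the mean over arrays, against -0.62 to -0.20 elsewhere.

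The promoters show which control elements lie near the start sites of these genes. RefSeq entries (GRCm38.p6, 250 bases before to 50 after a start site) were matched for 26 of the 33 genes, Acat2 among them. Fdps, Fdft1, Sqle, Stard4, Scd1, Scd2 and Fads1 were not matched. The search covered the sterol regulatory element TCACNCCAC, the NF-Y box CCAAT, the GC box GGGCGG and the E box CACGTG, each on both strands, and matches of different motifs were allowed to overlap. Below, the sterol element and CCAAT boxes (ATTGG on the other strand) are in capitals. The 5 genes are examples from the arms and need not be typical of them. Hmgcs1 is from the mevalonate pathway, Lss and Msmo1 from the sterol arm, Insig1 from the regulators and Fads2 from the fatty acid arm.

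Hmgcs1 (chr13:119690101-119690400, plus strand): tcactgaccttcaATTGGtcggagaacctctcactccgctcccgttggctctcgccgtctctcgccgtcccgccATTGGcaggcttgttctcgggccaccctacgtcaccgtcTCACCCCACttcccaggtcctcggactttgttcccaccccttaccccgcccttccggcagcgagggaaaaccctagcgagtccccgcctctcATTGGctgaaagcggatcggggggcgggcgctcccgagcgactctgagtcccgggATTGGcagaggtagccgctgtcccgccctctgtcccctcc
Lss (chr10:76531355-76531654, plus strand): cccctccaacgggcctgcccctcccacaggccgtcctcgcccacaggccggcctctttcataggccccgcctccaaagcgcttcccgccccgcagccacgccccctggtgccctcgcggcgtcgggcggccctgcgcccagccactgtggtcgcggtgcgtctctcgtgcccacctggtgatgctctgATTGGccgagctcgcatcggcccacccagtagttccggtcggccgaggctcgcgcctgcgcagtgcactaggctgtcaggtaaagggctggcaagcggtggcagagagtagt
Msmo1 (chr8:64733529-64733828, minus strand): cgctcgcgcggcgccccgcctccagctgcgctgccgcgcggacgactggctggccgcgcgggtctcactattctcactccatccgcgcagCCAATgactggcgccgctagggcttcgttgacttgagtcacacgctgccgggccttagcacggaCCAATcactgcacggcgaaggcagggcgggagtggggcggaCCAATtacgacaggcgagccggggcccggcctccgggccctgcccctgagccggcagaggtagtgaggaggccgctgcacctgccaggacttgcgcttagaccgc
Insig1 (chr5:28071162-28071461, plus strand): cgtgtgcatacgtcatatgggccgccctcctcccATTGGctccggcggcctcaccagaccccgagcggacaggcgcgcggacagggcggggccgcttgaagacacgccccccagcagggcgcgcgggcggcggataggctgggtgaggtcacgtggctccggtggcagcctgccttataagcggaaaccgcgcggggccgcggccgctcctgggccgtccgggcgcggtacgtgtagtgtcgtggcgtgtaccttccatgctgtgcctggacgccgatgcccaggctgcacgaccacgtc
Fads2 (chr19:10101454-10101753, minus strand): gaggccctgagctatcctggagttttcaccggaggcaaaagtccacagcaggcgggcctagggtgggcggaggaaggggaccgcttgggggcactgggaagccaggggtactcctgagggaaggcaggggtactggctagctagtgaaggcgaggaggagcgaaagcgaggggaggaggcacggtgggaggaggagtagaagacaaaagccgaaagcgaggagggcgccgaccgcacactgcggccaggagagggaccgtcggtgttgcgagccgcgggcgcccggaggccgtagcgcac

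CCAAT boxes were present in 21 of the 26 matched genes (80.8%), against 41.1% of 27025 genes with an entry. Among the matched genes of each arm, they were in 5 of 6 for mevalonate and 9 of 9 for sterol. The counts were 4 of 5 for the regulators and 3 of 6 for the fatty acid arm. GC boxes were present in 22 of 26 (84.6%, against 38.2%). The E box was found in 5 of 26 (19.2%, against 8.09%). The full sterol element was found in 1 of 26 (3.85%, against 1.44%), the promoter of Hmgcs1, where it starts 137 bases before the start site. A gene with several start sites was counted once if any of its promoters held the motif. The comparison genes were not limited to those detected on these arrays, while the matched members other than Acat2 were all detected. Such matches are letters in a window and do not show binding. A missing match does not show that a gene lacks an element, since only these exact letters in this window were searched.

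No member passed the threshold of an adjusted p of 0.05 (limma), and 0% of all genes did. The adjusted p-values of the 32 members lay between 0.445 and 0.970. At an unadjusted p under 0.05, 9 members were higher and 1 was lower in KO-labelled ureters, where 4.35% of all genes were higher and 4.71% were lower (9.06% in either direction). In 13 of the 32 members (40.6%) every KO-labelled array lay above every WT array, against 7.28% of all genes, and in 1 member every KO-labelled array lay below, against 8.13%. A difference above 0 was found in 28 of the 32 members (87.5%) and in 49.8% of all genes. The median difference of the 32 members was 0.31 and that of all genes was -0.00087. Members share regulators and arrays, and the list was chosen with earlier results of these data known. These counts therefore describe the list and are not a test of it.

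The count of 9 members moved with single arrays. It was 4 without WT replicate 2, where 2.84% of all genes were higher at an unadjusted p under 0.05. It was 3 without KO replicate 1, where the share of all genes was 2.5%, so the count over all genes dropped as well. Without both WT replicate 2 and KO replicate 3 it was 3, beside 4.43% of all genes. The number of members with separated arrays was 13, 13 and 16 in these settings, beside 10.7%, 10.6% and 20.4% of all genes, since fewer arrays make a separation easier to reach.

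**Figure D1:**
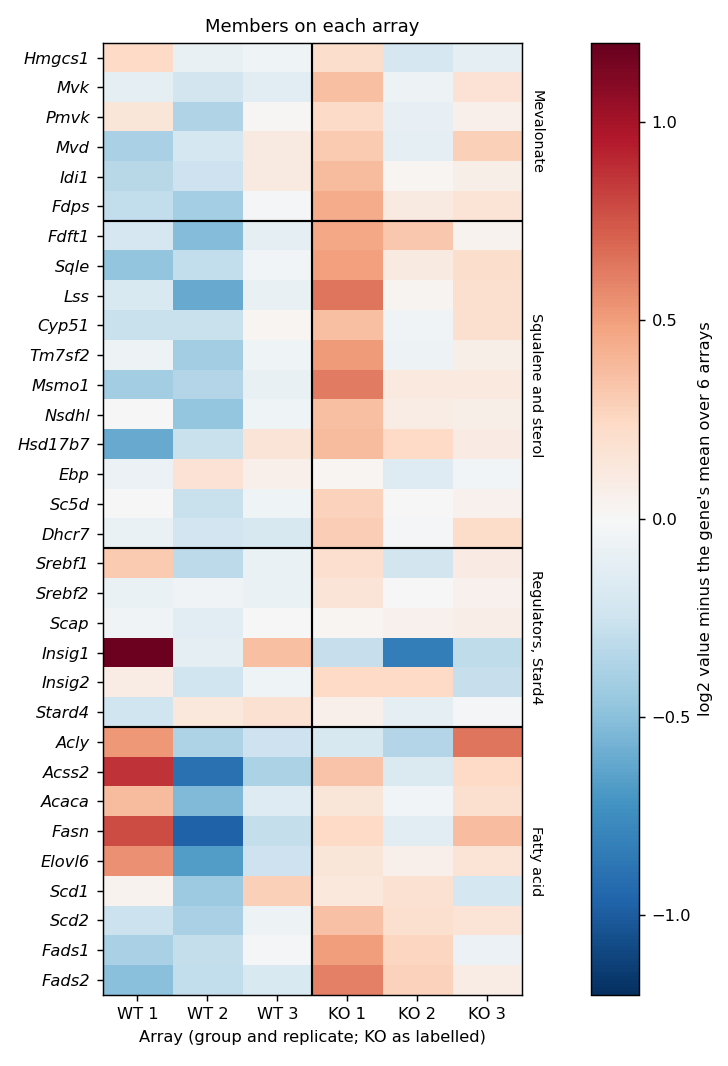
Heat map of the 32 members (rows, by arm) on the 6 arrays (columns); colour is the log2 value minus the mean of that gene over the 6 arrays. KO replicate 1 held the highest value for 15 of the 17 mevalonate and sterol genes, and WT replicate 2 the lowest value for 7 of the 9 fatty acid genes.

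Of the 6 mevalonate genes measured, 5 were higher in the KO-labelled ureters and 1 lower, with a median difference of 0.31. Fdps, which makes farnesyl diphosphate, was the member of this arm with the lowest p. Its values were 3.59, 3.48 and 3.86 in WT replicates 1 to 3 and 4.33, 3.99 and 4.05 in the KO-labelled replicates. The groups did not overlap, and the difference was 0.48 ± 0.15, or 1.39-fold (limma, adjusted p = 0.476).

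Mvk, mevalonate kinase, had 2.87, 2.77 and 2.85 in WT and 3.34, 2.93 and 3.16 in KO-labelled ureters, again without overlap (difference 0.31 ± 0.13). Its dimmer probe gave the same difference, 0.31. Idi1, the isomerase that follows the mevalonate steps, had 1.32, 1.40 and 1.76 against 2.03, 1.68 and 1.72. Here WT replicate 3 lay among the KO-labelled arrays (difference 0.32 ± 0.17).

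Mvd, the decarboxylase of the pathway, had 0.35, 0.53 and 0.84 in WT and 1.05, 0.64 and 1.02 in KO-labelled ureters, with overlap between WT replicate 3 and KO replicate 2 (difference 0.33 ± 0.18). Pmvk, phosphomevalonate kinase, differed by 0.13 ± 0.17, with overlapping groups and a second probe at 0.07. The entry enzyme Hmgcs1, which condenses acetoacetyl-CoA to HMG-CoA and carries the sterol element shown above, was the member of the arm with a difference below 0. Its values were 4.55, 4.23 and 4.27 in WT and 4.53, 4.11 and 4.21 in KO-labelled ureters, a difference of -0.06 ± 0.16. The 95% interval, from -0.44 to 0.32, holds both 0 and the median of the arm. A much dimmer second probe of Hmgcs1 differed by 0.12.

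The arm from squalene to cholesterol held 10 higher genes and 1 lower, with a median difference of 0.35. In 7 of its 11 genes (63.6%) the KO-labelled arrays all lay above the WT arrays, against 7.28% of all genes, and 5 were higher at an unadjusted p under 0.05 (45.5%, against 4.35%). With the mean of all probes of a gene in place of the brightest, 4 of the 11 were separated, against 7.01% of all genes. The differences of Lss, Msmo1, Fdft1 and Sqle lay between 0.54 and 0.58. Fdft1, squalene synthase, had 2.98, 2.66 and 3.06 in WT replicates 1 to 3 and 3.64, 3.50 and 3.22 in KO-labelled replicates 1 to 3. All KO-labelled arrays lay above all WT arrays, with a difference of 0.56 ± 0.16, or 1.47-fold (limma, adjusted p = 0.465), and the second probe differed by 0.48.

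Sqle, squalene epoxidase, had 1.97, 2.15 and 2.41 in WT and 2.94, 2.56 and 2.66 in KO-labelled ureters. WT replicate 1 was lowest and KO replicate 1 highest, and the groups were separate (0.54 ± 0.16, 1.45-fold; limma, adjusted p = 0.468). Lss, lanosterol synthase, had 0.86, 0.44 and 0.96 against 1.69, 1.08 and 1.24. Its difference was 0.58 ± 0.21, or 1.497-fold (limma, adjusted p = 0.504), without overlap, and its 3 probes gave 0.42 to 0.76.

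Msmo1, a sterol C4-methyl oxidase, had 2.80, 2.86 and 3.12 in WT and 3.84, 3.33 and 3.33 in KO-labelled ureters. KO replicate 1 stood above the other KO-labelled arrays, and the groups did not overlap (0.57 ± 0.18, 1.49-fold; limma, adjusted p = 0.470). The second probe of Msmo1 differed by 0.69 and the dimmest by 0.28. In mm9 coordinates the probes of Fdft1 and Sqle lie at chr14:63765457-63765516 and chr15:59162688-59162747; the exon or UTR they fall in was not assigned here.

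The other members of the arm had differences of 0.48 or less. Cyp51, lanosterol 14-demethylase, differed by 0.34 ± 0.15, Tm7sf2, a sterol reductase, by 0.35 ± 0.19, and Hsd17b7, a 3-ketosteroid reductase, by 0.48 ± 0.21, each with overlapping groups and with both of its probes higher. Dhcr7, which catalyses the last step to cholesterol in one branch, had -0.72, -0.88 and -0.83 in WT and -0.35, -0.66 and -0.42 in KO-labelled ureters. Its groups did not overlap (0.33 ± 0.12; limma, adjusted p = 0.504), but its dimmer probe, with a mean of -4.75 against -0.64, differed by -0.42.

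Nsdhl, a C4-decarboxylase, had 0.58, 0.11 and 0.53 in WT and 0.94, 0.67 and 0.64 in KO-labelled ureters. The arrays were separate (0.34 ± 0.17), while its dimmer probe differed by -0.58. Sc5d, a C5-desaturase, showed the same division between probes. Its brighter probe had 1.63, 1.36 and 1.58 against 1.91, 1.64 and 1.68, separate by a small margin (0.22 ± 0.13), and its dimmer probe differed by -0.42. Ebp, the sterol isomerase, was the lower gene of the arm, with 4.32, 4.57 and 4.46 against 4.42, 4.25 and 4.37. The 95% interval of its difference, -0.38 to 0.17, includes 0, and its second probe differed by 0.10.

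**Figure D2:**
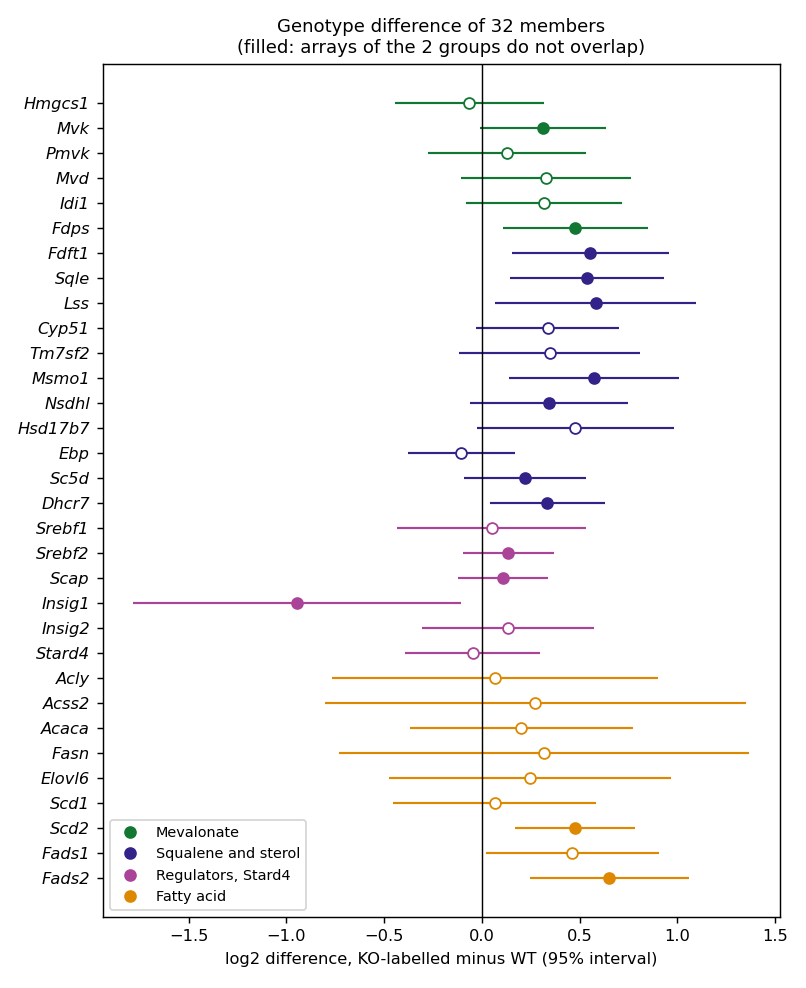
Log2 difference of each of the 32 members, KO-labelled minus WT, with the 95% interval from limma (3 arrays a group); filled points mark members whose 2 groups of arrays do not overlap. Sterol genes other than Ebp lie between 0.22 and 0.58, Insig1 stands alone at -0.94, and the intervals of Acss2 and Fasn are the widest of the fatty acid arm.

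KO replicate 1 had the highest value of all 6 arrays in 10 of the 11 sterol genes, and WT replicates 1 and 2 held the lowest value in 4 and 6 of them. Averaged over the 17 mevalonate and sterol genes, each taken relative to its mean over arrays, the levels were -0.18, -0.30 and -0.02 in WT and 0.37, 0.02 and 0.11 in KO-labelled replicates 1 to 3. The groups are separate on this average by the small step between WT replicate 3 and KO replicate 2. Without KO replicate 1 the median difference of the sterol arm was 0.27, and without WT replicate 2 it was 0.30.

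Markers of urothelium, smooth muscle and macrophages also differed between these arrays. The 5 superficial urothelium markers had mean relative levels of 0.42, -1.10 and -0.62 in WT and 1.06, 0.36 and -0.11 in KO-labelled ureters, so KO replicate 1 was highest and WT replicate 2 lowest there as well. The 4 basal markers had -0.82, -0.26 and 0.07 against 0.27, 0.48 and 0.26, but the list was divided: Krt5, Krt14 and Itgb4 had differences of 0.91, 1.30 and 0.82, and Trp63 one of -0.32, with every KO-labelled array below every WT array. The 6 smooth muscle markers had 0.11, -0.90 and -0.17 against 0.71, 0.48 and -0.23. The 8 macrophage markers had 0.01, 0.47 and 0.31 against -0.39, -0.54 and 0.14. In whole ureter RNA, fewer cells of a type and less RNA per cell cannot be told apart, and the part of these cell types in the sterol differences was not tested.

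Among the regulators, the transcripts of the SREBP pathway differed little and Insig1 stood apart. Insig1, the sterol-sensing anchor of SCAP and itself a known SREBP target, had the largest difference of all members, in the direction opposite to the sterol enzymes. Its values were 0.75, -0.55 and -0.07 in WT replicates 1 to 3 and -0.71, -1.26 and -0.74 in KO-labelled replicates 1 to 3. Every KO-labelled array lay below every WT array, but WT replicate 2 and KO replicate 1 were close to each other. The difference was -0.94 ± 0.35, or 0.52-fold, with a 95% interval from -1.78 to -0.11 (limma, adjusted p = 0.508).

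The size of the Insig1 difference depended on the arrays used and on the background correction. It was -0.59 without WT replicate 1, -0.64 with another background correction, and -1.24 without WT replicate 2. The arrays stayed separate in each of these settings, but fewer arrays make a separation easier to reach. The unadjusted p of Insig1 (limma) was 0.0329 on all arrays. It rose to 0.0555 without WT replicate 1, 0.0597 without WT replicate 3, 0.103 without KO replicate 2 and 0.055 without KO replicate 3. Without KO replicate 1 it was 0.0498, and without WT replicate 2 it was 0.00866. Only 1 probe measures Insig1 (mm9, chr5:28404246-28404305).

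Insig2, the second anchor, had 1.73, 1.40 and 1.59 in WT and 1.88, 1.88 and 1.36 in KO-labelled ureters. Both extremes belonged to KO-labelled arrays (0.13 ± 0.18), and its 3 probes gave -0.03 to 0.13. Srebf2, which encodes SREBP-2, had 1.23, 1.26 and 1.23 in WT and 1.46, 1.31 and 1.36 in KO-labelled ureters. The groups were separate by a narrow margin, the difference was 0.14 ± 0.10, or 1.10-fold (limma, adjusted p = 0.709), and the dimmer probe differed by 0.39.

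Srebf1, which encodes SREBP-1, had 5.39, 4.76 and 4.996 in WT and 5.28, 4.85 and 5.17 in KO-labelled ureters. The WT arrays spanned the KO-labelled ones, and the difference was 0.05 ± 0.20 with a 95% interval from -0.43 to 0.53. Scap had 3.04, 2.95 and 3.09 against 3.105, 3.13 and 3.16, separate but by 0.11 ± 0.10 on average. Stard4, a carrier that moves cholesterol between membranes, had -0.22, 0.14 and 0.19 in WT and 0.07, -0.10 and 0.0006 in KO-labelled ureters. The KO-labelled values lay within the WT range. Its difference was -0.05 ± 0.14, and a dimmer probe differed by 0.36.

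**Figure D3:**
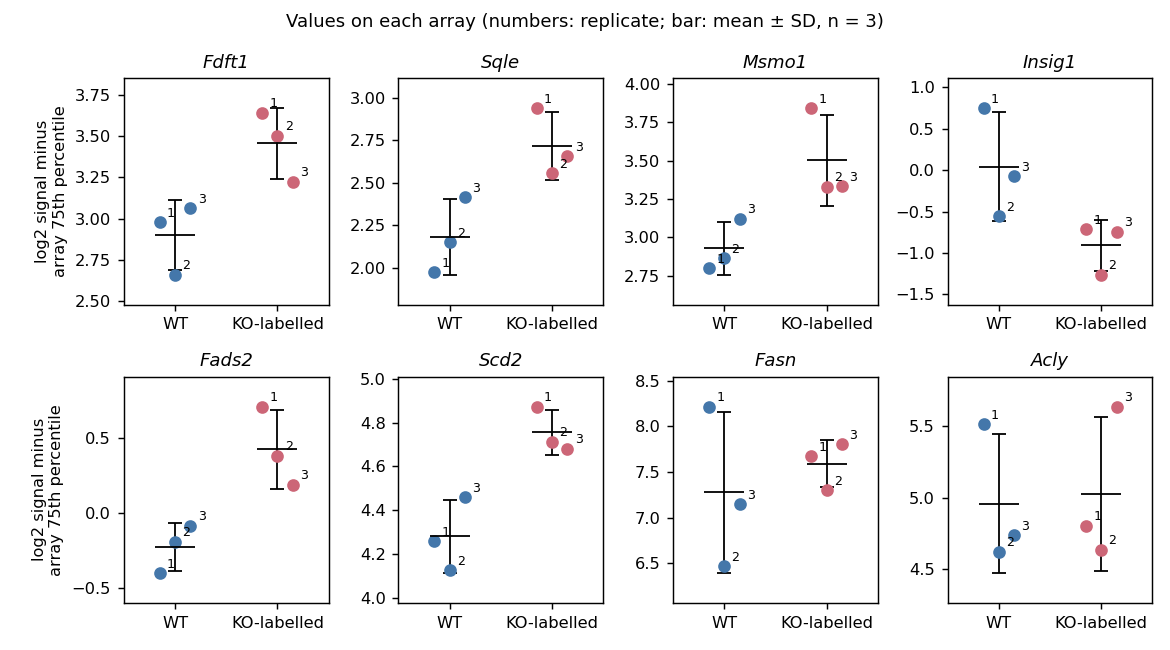
Log2 values (relative to the 75th percentile of the array) of 8 members on each array, with replicate numbers, and the mean and SD of each group (n = 3). Fdft1, Sqle, Msmo1, Fads2 and Scd2 are separate with KO-labelled arrays higher, Insig1 is separate with KO-labelled arrays lower, and Fasn and Acly overlap.

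The fatty acid arm fell into dissimilar sets. All 9 genes had a difference above 0, with a median of 0.27, but 3 of them carried the low p-values: Fads2, Scd2 and Fads1. This division of the arm was made after the values were seen.

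Fads2, the delta-6 desaturase that starts the synthesis of long polyunsaturated fatty acids, had -0.40, -0.19 and -0.08 in WT and 0.71, 0.38 and 0.19 in KO-labelled ureters. The groups did not overlap, and the difference of 0.65 ± 0.17, or 1.57-fold, had the lowest p of all members (limma, adjusted p = 0.445). All 5 of its probes were higher, by 0.28 to 0.66. Its promoter window, shown above, held no exact match to the sterol element searched for and no CCAAT box.

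Scd2, a stearoyl-CoA desaturase, had 4.26, 4.13 and 4.46 in WT and 4.87, 4.71 and 4.68 in KO-labelled ureters. Groups were again separate (0.48 ± 0.13, 1.39-fold; limma, adjusted p = 0.454). Fads1, the delta-5 desaturase that acts after Fads2, had 0.56, 0.67 and 0.94 against 1.46, 1.21 and 0.89. KO replicate 3 lay below WT replicate 3 (0.46 ± 0.18; limma, adjusted p = 0.536), and the dimmer probes of Fads1 gave -0.09 and 0.14.

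Scd1, the paralogue of Scd2 that is abundant in fat, had 7.16, 6.69 and 7.41 in WT and 7.25, 7.30 and 6.91 in KO-labelled ureters. The groups overlapped, the difference was 0.07 ± 0.21 with a 95% interval from -0.45 to 0.59, and its second probe differed by -0.14. Of the members, 5 lie on chromosome 19, as Col17a1 does. In mm9 coordinates the probes of Scd2 (chr19:44381024-44381083) and Scd1 (chr19:44469387-44469446) lie 3.34 and 3.25 Mb from the Col17a1 probe, and those of Fads1, Fads2 and Tm7sf2 lie 37.5, 37.6 and 41.7 Mb away. For Scd1 and Scd2, the nearest of these genes, alleles carried along with the Col17a1 locus cannot be told apart from the genotype. Whether such alleles reach Fads1, Fads2 and Tm7sf2 was not tested.

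The enzymes that make palmitate and extend it did not separate the groups. Acly, ATP citrate lyase, had 5.51, 4.62 and 4.74 in WT and 4.80, 4.63 and 5.63 in KO-labelled ureters, so WT replicate 1 and KO replicate 3 were both high (0.07 ± 0.34). Acss2, acetyl-CoA synthetase, had 2.75, 0.99 and 1.51 against 2.23, 1.71 and 2.12. The WT arrays enclosed all KO-labelled values (0.27 ± 0.44, 95% interval -0.80 to 1.35), and its 4 probes ranged from -0.16 to 0.46.

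Acaca, acetyl-CoA carboxylase, had 5.68, 4.77 and 5.13 in WT and 5.44, 5.26 and 5.48 in KO-labelled ureters (0.20 ± 0.24), and 6 of its 7 probes had a difference above 0. Fasn, fatty acid synthase, differed by 0.32 ± 0.43 (95% interval -0.73 to 1.37) and Elovl6, the elongase acting on palmitate, by 0.25 ± 0.30. In both, WT replicate 1 was the highest array and WT replicate 2 the lowest. The WT arrays spanned 1.75 in Fasn, 1.76 in Acss2 and 1.21 in Elovl6, against 0.50, 0.52 and 0.10 among the KO-labelled arrays. These intervals are wide enough to hold a 2-fold difference in Fasn and Acss2 in the upward direction.

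For Acly, Acss2, Acaca, Fasn and Elovl6, WT replicate 2 was the lowest array in 5 of 5. Their mean relative levels were 0.62, -0.69 and -0.26 in WT and 0.14, -0.13 and 0.32 in KO-labelled ureters. Without WT replicate 2 the median difference of the whole fatty acid arm was -0.03, in place of 0.27. The 9 adipocyte markers ran 0.37, -0.23 and -0.14 in WT and 0.17, 0.03 and -0.21 in KO-labelled ureters, highest in WT replicate 1 and lowest in WT replicate 2. All 9 were well above background on every array; Adipoq and Plin1 differed between the groups by -0.10 ± 0.28 and 0.05 ± 0.34. Of these markers, 4 had a difference above 0 and 5 below, and 1 was separated in each direction. Retn, which encodes resistin, differed by 0.81 ± 0.27, with every KO-labelled array above every WT array (limma, adjusted p = 0.486). Lipe differed by -0.55 ± 0.28, with every KO-labelled array below every WT array (limma, adjusted p = 0.604). The part of fat tissue in the spread of the palmitate and elongation enzymes was not tested. Nor was that of the kidney transcripts in WT replicate 2.

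**Figure D4:**
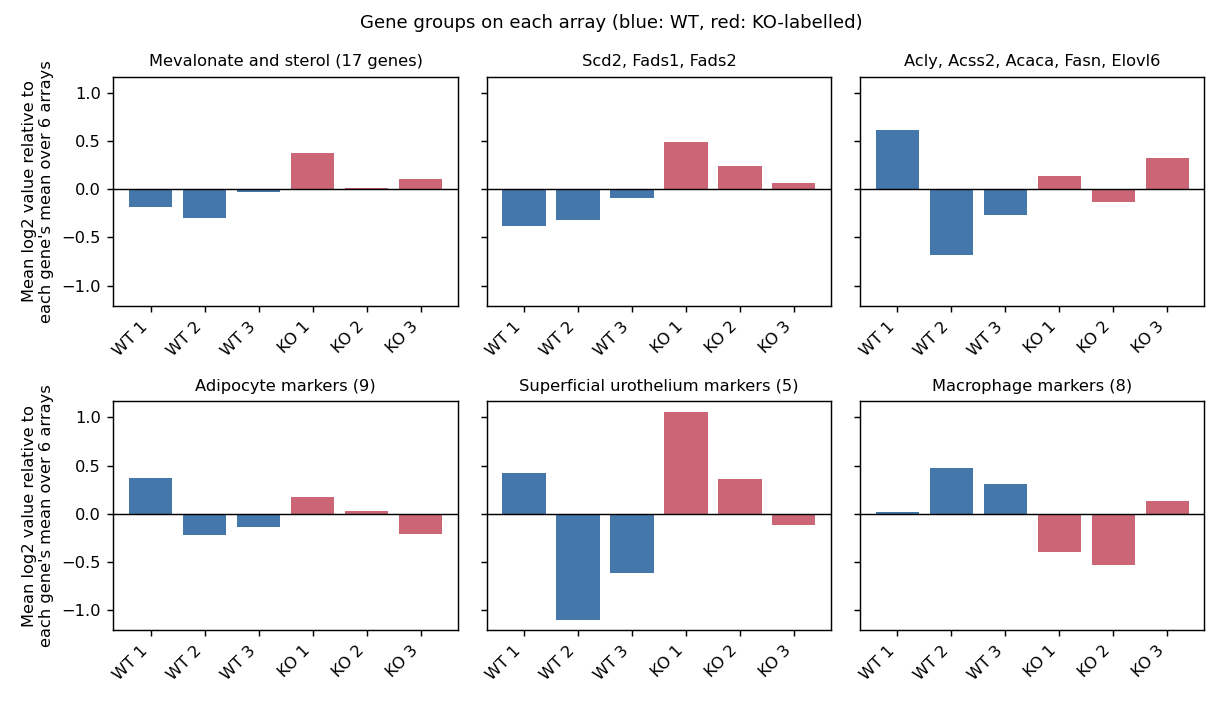
Mean log2 value of each gene group on each array, relative to each gene's mean over the 6 arrays (bars: 1 array each; blue WT, red KO-labelled). The 17 mevalonate and sterol genes run from -0.30 in WT replicate 2 to 0.37 in KO replicate 1, while the 5 palmitate and elongation enzymes run from -0.69 to 0.62 within the WT group.

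Other genes of lipid handling were read from lists of whole pathways. None of their genes passed the adjusted threshold (limma). Of 9 genes of lipoprotein uptake and lysosomal cholesterol release, 8 had a difference below 0 and 1 above, with a median of -0.23. Lipa, the lysosomal acid lipase, led with 3.06, 2.81 and 2.61 in WT and 1.62, 1.64 and 2.22 in KO-labelled ureters. Its groups did not overlap (-1.003 ± 0.21, 0.499-fold; limma, adjusted p = 0.418).

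Of 7 genes of sterol efflux and the LXR pathway, 6 were below 0, with a median of -0.28. Abca1, a cholesterol exporter, had 3.19, 3.38 and 3.39 in WT and 2.81, 2.99 and 3.09 in KO-labelled ureters, without overlap (-0.36 ± 0.12; limma, adjusted p = 0.488). Nr1h3, which encodes the sterol sensor LXR-alpha, had 3.17, 2.82 and 2.91 against 2.68, 2.71 and 2.37, also without overlap (-0.38 ± 0.15; limma, adjusted p = 0.535). All 8 macrophage markers were below 0 in the same arrays, with a median difference of -0.54. Macrophages express each of these 3 genes, and the share of macrophage RNA in their difference was not tested.

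The 5 genes of SREBP processing and degradation had a median difference of -0.03, and the 6 genes of the isoprenoid branches one of -0.06, with differences from -0.24 to 0.04. Among 16 further genes of fatty acid and glyceride synthesis, 13 were above 0 with a median of 0.07. Me1, malic enzyme, which supplies NADPH, had 4.46, 3.52 and 4.05 in WT and 4.77, 4.63 and 4.70 in KO-labelled ureters. Its groups were separate (0.69 ± 0.24, 1.61-fold; limma, adjusted p = 0.492). Fatty acid oxidation, with 11 genes, had a median of 0.0024 and mean relative levels of 0.71, -0.52 and -0.19 in WT against 0.21, 0.23 and -0.45 in KO-labelled ureters. As with the palmitate enzymes, WT replicate 1 was the highest array and WT replicate 2 the lowest.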

How the data were processed

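Cy3-labelled total RNA from 6 obstructed ureters was measured on Agilent arrays in 1 colour. The deposited intensity values were made with Agilent Feature Extraction 12.0.3.1, per the submitters' processing notes; the step included background subtraction and detrending within an array, per the file headers. Whether the authors also normalised between arrays is not stated in these sources. Probe coordinates are mm9, per the file headers.

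Of 59305 non-control spots (56605 probes), outlier spots were left out and repeat spots averaged. Processed signals were put on a log2 scale, and the 75th percentile of the array was subtracted. A probe was kept if all arrays of WT, or all of KO, had it well above background, and the brightest probe stood for its gene, by the gene name in the files. No member value was missing. The comparison used limma 3.58.1 (lmFit, eBayes; R 4.3.3), and p-values were adjusted by Benjamini-Hochberg over all 22260 genes and a threshold of 0.05. On simulated data for this comparison (22260 genes, 5 runs), the fit found 52.6% of genes changed 2-fold and 92.6% of those changed 4-fold, with 5 false calls per run on average. Every member differed by less than 2-fold, a size for which no recovery is given here. An exact permutation test of 3 against 3 arrays cannot go below p = 0.1. The number of arrays limits the precision. The limma p-values set the difference between groups against the spread within groups of these 6 samples, moderated over all genes.

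The members and lists were chosen with earlier results of these data known. Values on every array are given for the 4 members of each arm with the lowest p, for Srebf1 and Srebf2 and for members whose probes differ in sign (12 of 22 with more than 1 probe). Genes of the other pathway lists are named at an unadjusted p under 0.05; the marker genes named were chosen after their values were seen. Alternatives covered background (normexp, offset 50), quantile normalisation, dim probes, probe choice, a variance trend, the replicate number as a block and left-out arrays.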

Additional observations from a re-analysis of the deposited data

How the results depend on the processing

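No member passed the threshold under any of the 14 alternatives; the lowest adjusted p of a member was 0.184 (limma). Of the 32 members, 19 kept their direction throughout, Insig1, Fads2, Scd2, Fdps, Fdft1, Sqle, Lss and Msmo1 among them. Averaging all probes of a gene gave differences of 0.029 for Hmgcs1, -0.12 for Nsdhl, -0.10 for Sc5d, -0.041 for Dhcr7, 0.16 for Stard4 and -0.036 for Scd1; these genes have probes of opposite sign. That setting also left 4 of 11 sterol genes separated, in place of 7. Without both WT replicate 2 and KO replicate 3, they were -0.015 for Pmvk, -0.13 for Srebf1, -0.41 for Acly, -0.16 for Acss2, -0.057 for Acaca, -0.19 for Fasn, -0.046 for Elovl6 and -0.013 for Scd1, the fatty acid median was -0.046, and 3 members were higher at an unadjusted p under 0.05; the cause was not tested. Leaving out each array in turn gave -0.19 to 0.037 for Hmgcs1, -0.018 to 0.23 for Pmvk, -0.093 to 0.22 for Srebf1, -0.18 to 0.033 for Stard4, -0.24 to 0.35 for Acly, -0.11 to 0.77 for Acss2, -0.012 to 0.44 for Acaca, -0.088 to 0.79 for Fasn, -0.026 to 0.58 for Elovl6, -0.13 to 0.23 for Scd1, -0.026 to 0.46 for the fatty acid median, and 3 to 11 members higher at an unadjusted p under 0.05. Medians were 0.21 to 0.40 for the mevalonate arm and 0.27 to 0.47 for the sterol arm. The count over all genes was 0 to 1 (without KO replicate 2), and 1 with the replicate number as a block; neither gene was a member. The sources do not say that the replicate numbers pair the mice, so the numbers were not taken as pairs. Deviations of same-numbered arrays correlated at 0.53, -0.15 and -0.03, and those of differently numbered arrays at -0.45 to 0.46. With 3 arrays a group, such correlations cannot decide whether the mice were paired. The block changed no member's call. A sex term would only remove the female KO array. The counts of members at an unadjusted p and of separated members were chosen after seeing the data.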
